A study of Canis lupus familiaris with 20 samples.

Results

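The cluster described here is a run of 8 neighbouring genes on chromosome 16 of the dog genome (build CanFam3.1), out of 24580 genes counted in the series. Its members were chosen by position, as all rows whose lowest exon start lies in a window of 150 kb, and the window itself was chosen from measured values, namely the higher levels of neighbouring genes at day 14 than at day 9 in control dogs. Of the 8 rows in the window, 8 held at least 10 counts in total, so none was left out. The genes are numbered 1 to 8 along the chromosome. Gene 1 ran from 14752828 to 14763113, gene 2 from 14793877 to 14795726, gene 3 from 14818602 to 14820157 and gene 4 from 14828921 to 14833411. Gene 5 ran from 14846997 to 14852147, gene 6 from 14867418 to 14873936, gene 7 from 14889358 to 14896569 and gene 8 from 14899804 to 14901510. Genes 1, 3, 4, 6 and 7 lay on the plus strand and genes 2, 5 and 8 on the minus strand.

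The data came from RNA sequencing of epiphyseal cartilage of the T12 vertebra, excised beside the growth plate at both ends of the vertebra and pooled within each animal. Dogs with mucopolysaccharidosis VII (MPS VII) lack working beta-glucuronidase, a lysosomal enzyme, and store undegraded glycosaminoglycans, the sugar chains that fill cartilage matrix. The 4 groups were MPS VII dogs at postnatal day 14, MPS VII dogs at postnatal day 9, control dogs at postnatal day 14 and control dogs at postnatal day 9, with 5 animals and 5 libraries each. MPS VII dogs were homozygous for the R166H missense change in GUSB, the gene of that enzyme, and control dogs were heterozygous for it, so every animal carried at least 1 copy of the change, and no group without it is part of the comparison. The model occurs naturally, and controls were litter-matched, although the sources used here do not give the litter, sex or sequencing batch of a library. No label states how the excised tissue was shared between cartilage and the cells of vessels or marrow, and the markers of cartilage, vessel, blood and bone cells were not analysed here because the file does not pair its identifiers with gene names.

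By its position the window was proposed to hold the GIMAP family. GIMAP proteins (GTPases of the immunity-associated protein family) are small GTP-binding proteins whose genes lie side by side in mammals. They are known, chiefly from human and mouse, for their role in the survival and development of lymphocytes, and some are also expressed in endothelial cells, which line blood vessels. Cartilage has no vessels of its own, apart from the canals that enter the epiphysis. In the RefSeq annotation of another dog assembly, UU_Cfam_GSD_1.0, 6 symbols beginning with GIMAP are listed, and 6 of them neighbour one another on chromosome 16, in the order GIMAP8, GIMAP1, GIMAP4, GIMAP7, GIMAP6 and GIMAP2, with LOC111090251 before the last, followed by TMEM176B as the next gene with a symbol. None of the Ensembl identifiers in the counts file matched that annotation (0 matches). The label was therefore neither borne out nor contradicted by a name, no member is given a symbol or a role here, and the genes are described in the order of their positions and results.

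The 8 genes had 2 to 4 exons each and 762 to 4187 bases of exon. Gene 5 shared 12 bases of exon with a plus-strand gene that starts at 14642056 and runs on to 14848522 across the first part of the cluster. That overlapping gene held 367 counts in all libraries together, against 761 for gene 5. Neighbouring genes of a family can be near-identical copies, and the sources used here do not give how reads that match several genes were treated, so the split of reads between members is uncertain.

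**Figure D1:**
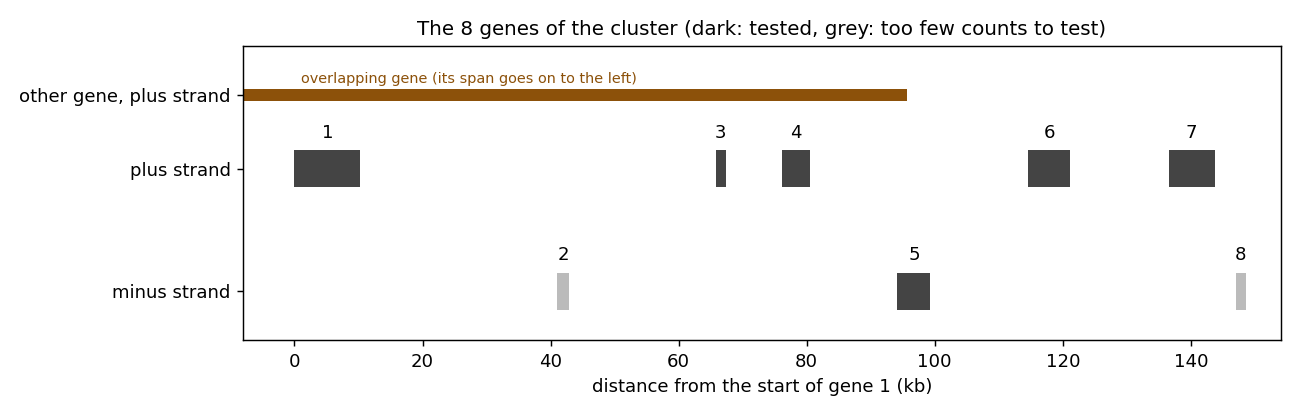
Positions of the 8 genes in kb from the start of gene 1, with bars for each gene's span on the plus or minus strand, and a thin bar for the plus-strand gene that overlaps gene 5. Genes 2 and 8, in grey, held too few counts to be tested.

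Counts in the cluster were low. The libraries held 15772761 to 22471728 counts each at day 14 and 21419930 to 28028365 at day 9, and the 8 genes together took 43 to 416 of them. The lowest sum, 43 counts in control day 9 replicate 3, had an exact Poisson 95% interval of 31.1 to 57.9, and the highest, 416 counts in MPS VII day 14 replicate 2, one of 377 to 458; these intervals cover counting error only. Of the 143 nonzero counts 79.0% were even and gene 5 stood apart at 35% against 70% to 100% in the other genes. If counts were added in pairs, which was not tested, the Poisson intervals above are too narrow. With all counts halved, to allow for this, the interval around the halved lowest sum was 13.8 to 33.3, in halved counts. Levels below are CPM, the count divided by the scaled library size and multiplied by 1e6.

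The members stood low among tested genes when levels were set per kb of exon. Averaged over the 4 group means, gene 5 was highest at 1.90 CPM per kb, above 25.3% of the 14550 tested genes. Genes 3 and 4 followed at 1.02 CPM per kb each, then gene 7 at 0.639, gene 1 at 0.629 and gene 6 at 0.325. Gene 6 stood above 6.03% of tested genes. Genes 2 and 8 were lowest in this order, with group means of at most 0.242 and 0.192 CPM per kb, both in control day 14 dogs. The spreads of the highest 3 overlapped in MPS VII dogs of day 14, where gene 5 averaged 2.45 ± 0.771 CPM per kb, gene 3 1.90 ± 0.821 and gene 4 1.53 ± 0.402 (SD, n = 5 each).

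Summed over the 8 genes, the level was lowest in day 9 controls and of similar size in both groups of day 14. MPS VII dogs averaged 13.9 ± 4.57 CPM at day 14 and 8.67 ± 2.36 CPM at day 9, and control dogs 11.9 ± 2.50 CPM at day 14 and 3.03 ± 1.42 CPM at day 9 (SD, n = 5 each). The 5 MPS VII libraries of day 9 lay between 6.35 and 12.5 CPM, all above the control libraries of day 9, which lay between 1.89 and 5.51 CPM. At day 14 the libraries of both genotypes overlapped, with 7.22 to 19.8 CPM in MPS VII dogs and 9.04 to 15.6 CPM in controls. In bulk tissue, more cells that express these genes and more RNA per cell cannot be told apart. No p-value is given for this sum, since its members were chosen with results in view.

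**Figure D2:**
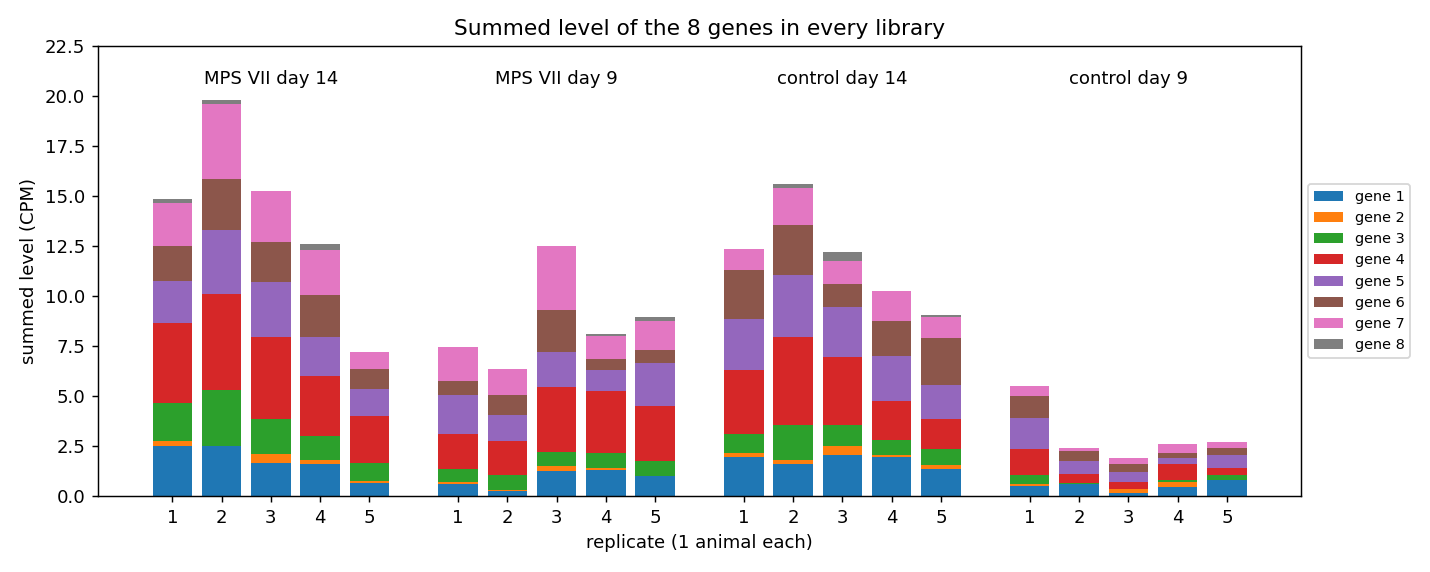
Summed level of the 8 genes (CPM) in each of the 20 libraries, stacked by gene and grouped by genotype and age. The MPS VII libraries of day 9 reach 6.35 to 12.5 CPM and those of day 9 controls 1.89 to 5.51 CPM.

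The age change in MPS VII dogs was the one comparison whose libraries took no part in the choice of the window. It asked whether the genes also stood higher at day 14 than at day 9 in affected cartilage. All 6 tested genes had a positive log2 fold change, from 0.38 to 1.25. Of the 6, 1 was called higher (edgeR quasi-likelihood test, Benjamini-Hochberg adjusted p under 0.05), against 12.7% of all 14550 tested genes in this comparison. A count of 1 in 6 is close to that share. The members' median log2 fold change was 0.72, beside -0.09 over all tested genes. Of all genes called in this comparison 56.2% were higher, and 93.1% without scaling factors. Genes 2 and 8 were too low to be tested.

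Gene 3 (ENSCAFG00000004576) was the member called higher. It stood at 1.93, 2.81, 1.73, 1.22 and 0.873 CPM in the MPS VII dogs of day 14, against 0.635, 0.752, 0.711, 0.752 and 0.735 CPM in the MPS VII dogs of day 9. Every day 14 library lay above every day 9 library, and the day 9 libraries were close to one another. Non-overlapping libraries in this direction were found in 1 of the 6 tested members and in 7.96% of all tested genes. The log2 fold change of gene 3 was 1.25 ± 0.44 (SE, edgeR adjusted p = 0.0452). This call sat at the edge of the threshold. It was lost when MPS VII day 9 replicate 1, 2, 4 or 5 or MPS VII day 14 replicate 1, 2 or 3 was left out, with adjusted p-values of up to 0.13 in edgeR, and also when genes of low count were kept in the fit (edgeR adjusted p = 0.0516).

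The other 5 tested genes did not pass. Gene 1 averaged 1.8 ± 0.769 CPM in MPS VII dogs at day 14 and 0.896 ± 0.450 CPM at day 9 (log2 fold change 1.00, 95% interval 0.21 to 1.8, edgeR adjusted p = 0.0769). Gene 6 averaged 1.88 ± 0.591 CPM at day 14 and 0.998 ± 0.613 CPM at day 9 (log2 fold change 0.90, 95% interval 0.12 to 1.68, edgeR adjusted p = 0.104). Genes 4, 5 and 7 had log2 fold changes of 0.54, 0.46 and 0.38, with 95% intervals that reached from -0.13 to 1.22, from -0.20 to 1.12 and from -0.32 to 1.08, so doublings of genes 4, 5 and 7 lay inside them. Single libraries moved this count. Without MPS VII day 9 replicate 3, the highest of its group in genes 2, 4, 6 and 7, genes 1, 3 and 6 were called (3 of 6, edgeR). Without MPS VII day 14 replicate 5, the lowest of its group in genes 1, 3, 4, 5, 6 and 7, the count was 2 of 6. Calls over all genes, in either direction, moved as well. They numbered 3902 of 14684 in the first of these fits and 2514 of 14717 in the second, against 3297 of 14550 with all libraries.

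**Figure D3:**
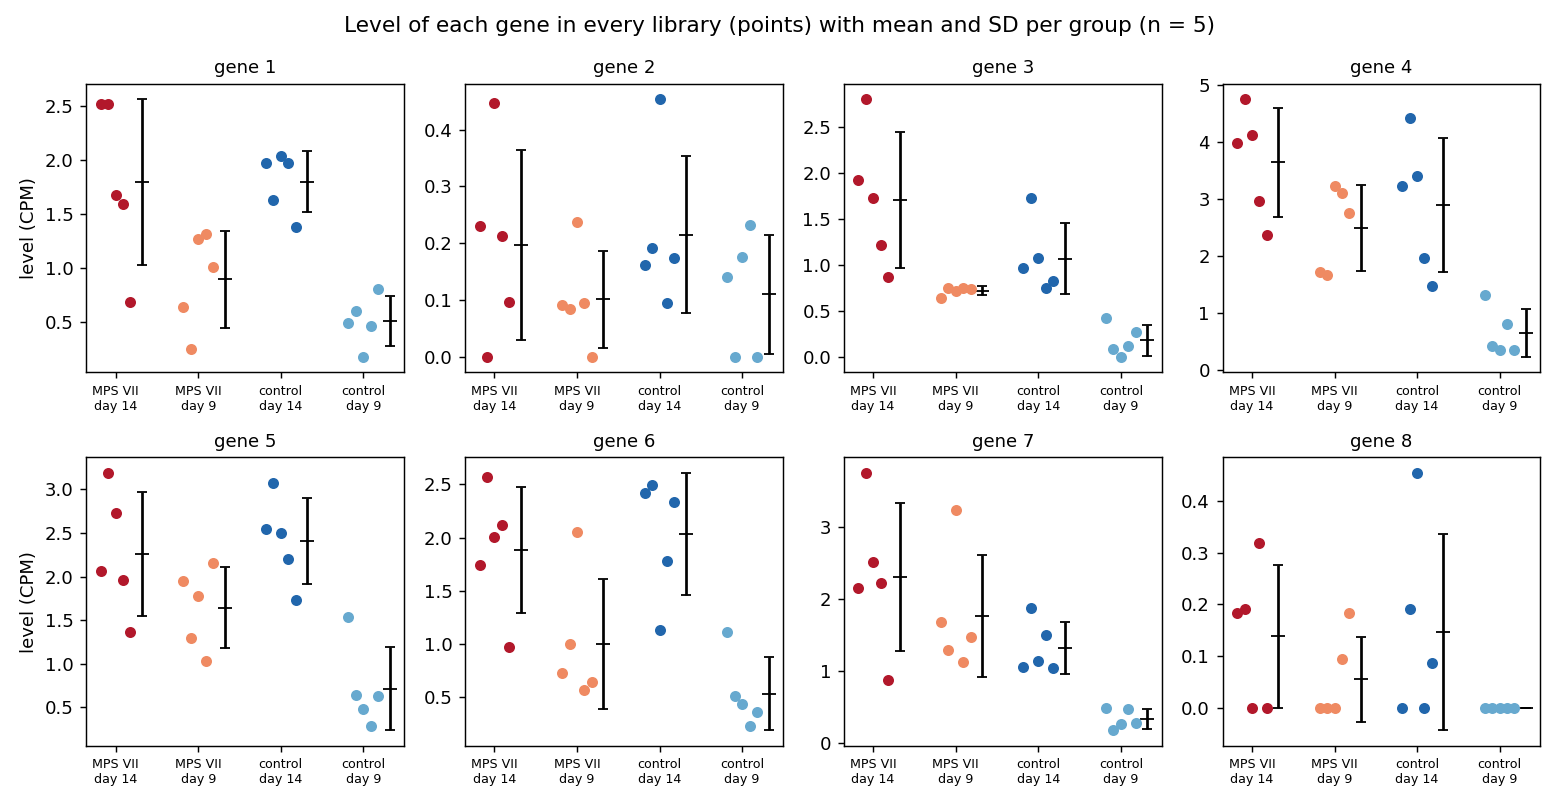
Level (CPM) of each of the 8 genes in every library (points), with the mean and SD of each group beside them (n = 5 animals a group). In genes 3, 4 and 7 all MPS VII libraries of day 9 lie above all control libraries of day 9, and gene 8 is at 0 in every control library of day 9.

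At day 9 the 6 tested genes had higher mean levels in MPS VII cartilage than in control cartilage. Gene 2 held 12 counts over the MPS VII libraries and 12 over those of controls. This comparison shares its control libraries with the one that drew attention to the window, where low levels in day 9 controls were part of the choice, so its values are a description and no test is read from them. All 6 tested genes had a positive log2 fold change, with a median of 1.53 beside 0.02 over all tested genes. The edgeR fit called 4 of the 6 higher, genes 3, 4, 5 and 7, against 6.18% of all tested genes.

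Gene 7 (ENSCAFG00000024817) differed most between the genotypes at day 9. It stood at 1.68, 1.29, 3.24, 1.13 and 1.47 CPM in MPS VII dogs, against 0.488, 0.171, 0.264, 0.464 and 0.269 CPM in controls. The groups did not overlap, and MPS VII replicate 3 was well above the rest of its group. The log2 fold change was 2.4 ± 0.41 (SE), and it was 2.06 to 2.60 when each library of these groups was left out in turn.

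Gene 4, the member with the most counts, stood at 1.73, 1.67, 3.24, 3.1 and 2.76 CPM in MPS VII dogs of day 9, against 1.33, 0.427, 0.352, 0.812 and 0.358 CPM in controls of day 9. Its log2 fold change was 1.91 ± 0.38 (SE). Gene 3 had a log2 fold change of 1.92 ± 0.51 (SE), with the 5 MPS VII values given above, against 0.419, 0.0854, 0, 0.116 and 0.269 CPM in controls of day 9. The value for gene 3 was 1.61 to 2.56 with each library left out; it was 2.56 without control day 9 replicate 1, and the call was lost without control day 9 replicate 2 (1.74). In genes 3, 4 and 7 MPS VII and control libraries did not overlap at day 9, which held in this direction for 3 of 6 tested members and 5.26% of all tested genes.

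Gene 5 overlapped between the genotypes at day 9. It stood at 1.95, 1.29, 1.78, 1.03 and 2.16 CPM in MPS VII dogs, against 1.53, 0.640, 0.484, 0.290 and 0.627 CPM in controls, where replicate 1 lay inside the MPS VII range. Its log2 fold change was 1.16 ± 0.35 (SE). The call of gene 5 sat at the threshold: it was lost in 7 of the 10 fits that left out 1 library of these groups, and with no scaling factors, no expression filter or halved counts, where 3 of the 6 members were called. Genes 1 and 6 were the tested members that were not called, with log2 fold changes of 0.81 ± 0.43 and 0.87 ± 0.42 (SE). The count of 4 fell to 2 when the day 14 libraries were left out of the fit and to 2 without control day 9 replicate 2. Genes 4 and 7 were called in each of these fits. Over all genes these fits called 711 of 13917 and 896 of 14687, in either direction, against 1220 of 14550 in the main fit.

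Control day 9 replicate 1 stood apart from its group. Its summed level was 5.51 CPM, against 1.89 to 2.69 CPM in the other 4 libraries, and it was the highest of its group in genes 3, 4, 5, 6 and 7. Without this library and MPS VII day 9 replicate 3 together, an alternative added after the data were seen, 4 of 6 members were called in the comparison of genotypes at day 9. The median log2 fold change of the members was then 1.94. The calls and the median over all genes in this fit are not given, so these values are a description.

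At day 14 the libraries of both genotypes overlapped in each of the 6 tested members (the share over all tested genes is not given). This comparison shares the control libraries of day 14 with the one that drew attention to the window, so it is also a description. The edgeR fit called 0 of the 6 tested members in either direction, against 22.0% of all tested genes. DESeq2 called 0 of 6, against 3582 of 14550 over all genes. In edgeR 1 of 6 had an unadjusted p under 0.05, and the share of all genes under it is not given. The median log2 fold change was 0.17, with a range of -0.12 to 0.80. Gene 7 had the largest, 0.80 ± 0.36 (SE), with 2.16, 3.76, 2.51, 2.23 and 0.873 CPM in MPS VII dogs and 1.05, 1.87, 1.13, 1.5 and 1.04 CPM in controls. Of the 5 MPS VII values, 4 lay above every control value and 1, that of replicate 5, below all of them, and without that replicate gene 7 was called (log2 fold change 1.01). The 95% interval of gene 1 reached from -0.77 to 0.77, and that of gene 6 from -0.88 to 0.65, on the log2 scale. Those of genes 4 and 5 reached from -0.34 to 1.01 and from -0.74 to 0.56, and that of gene 7 from 0.09 to 1.52. Gene 3 had a log2 fold change of 0.68, with an interval of -0.17 to 1.53. Doublings of genes 3, 4 and 7 thus lay inside their intervals.

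**Figure D4:**
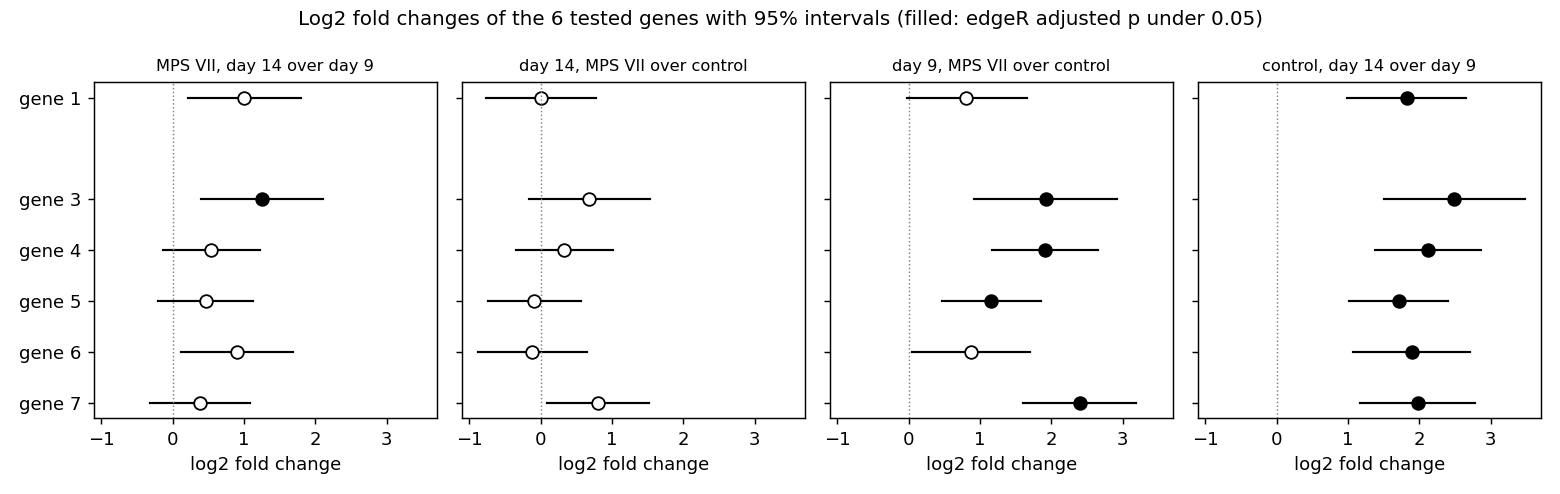
Log2 fold changes of the 6 tested genes with 95% intervals in 4 comparisons; filled points had an edgeR adjusted p under 0.05. The panels of genotype and of age in controls are descriptions, because control libraries were used to choose the window. The estimates for controls lie at 1.71 to 2.49 and those for MPS VII dogs over the same ages at 0.38 to 1.25.

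In control dogs, the comparison that chose the window, the 6 tested genes were 1.71 to 2.49 higher at day 14 than at day 9 on the log2 scale, and no test is read from this. The fit called 6 of 6 higher, against 21.8% of all tested genes (39.2% without scaling factors). The libraries of both ages did not overlap in 6 of 6, against 20.2%. Because the window was chosen for this change, high counts among its members were favoured beforehand. Gene 3 averaged 1.07 ± 0.390 CPM at day 14 and 0.178 ± 0.166 CPM at day 9, and gene 5 averaged 2.41 ± 0.493 CPM at day 14 and 0.715 ± 0.479 CPM at day 9 (SD, n = 5 each). These were the largest and the smallest of the 6 log2 fold changes, 2.49 ± 0.51 and 1.71 ± 0.35 (SE). Without control day 9 replicate 1 the value for gene 3 was 3.13. Gene 1 was the steadiest member at day 14 in controls, at 1.98, 1.63, 2.04, 1.97 and 1.38 CPM.

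The estimated age change was smaller in MPS VII dogs than in controls in each tested member, with differences of the log2 fold changes from -1.59 to -0.81. Because the control side was chosen for its size, this difference is a description too. The edgeR fit called 0 of 6, against 3.26% of all tested genes in either direction. DESeq2 called 1 of 6, gene 4, against 932 of 14550 over all genes. In edgeR 3 of 6 had an unadjusted p under 0.05, and the share of all genes under it is not given. For gene 7 the difference was -1.59, with a 95% interval of -2.65 to -0.53, and for gene 4 it was -1.57, with an interval of -2.57 to -0.58. Without control day 9 replicate 1, genes 4 and 5 were called, with differences of -2.04 and -1.75. That fit called 558 of 14668 genes.

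Genes 2 and 8 are known here from few counts. Gene 2 held 19 counts over the MPS VII libraries of day 14, 12 over those of day 9, 22 over the control libraries of day 14 and 12 over those of day 9. Gene 8 held 14 counts in MPS VII dogs of day 14, 6 in those of day 9, 14 in controls of day 14 and 0 in controls of day 9. Day 9 controls were thus the group with no count of gene 8, but 12 of all 20 libraries held 0. No fold change is given for either gene.

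The tested members varied together from library to library. Over the 20 libraries the 15 pairs of members had Pearson correlations of log2 CPM from 0.65 to 0.92, with a median of 0.79. With the mean of each group taken off, the correlations were 0.16 to 0.66, with a median of 0.52. Genes 3 and 4 were the closest pair by this measure (0.66), and genes 1 and 6 the least close (0.16). The correlations over all 20 libraries hold the age change in controls that chose the window, so high values were favoured beforehand. These points also share libraries, and reads of similar genes can be shared between members. Pairs of other genes were not correlated for comparison, so the correlations are descriptions.

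The genes on either side of the cluster had lower medians than the members in 3 of the 4 comparisons. Within 1 Mb below the window 20 genes were tested and within 1 Mb above it 19, and in MPS VII dogs their median log2 fold changes with age were -0.15 and -0.16, beside 0.72 in the members. For genotype at day 9 the medians were 0.05 and -0.19, beside 1.53 in the members, and for age in controls -0.39 and 0.05, beside 1.93. Age in controls chose the window, and genotype at day 9 shares control libraries with it. Higher members were thus favoured beforehand in both. The highest single log2 fold changes with age in controls were 2.15 below, 3.56 above and 2.49 in the members. For genotype at day 14 the medians of the flanks were 0.25 and 0.09, on either side of the members' 0.17. The nearest row below the window, starting at 14694328, averaged 5.58 CPM in MPS VII dogs of day 14, 5.81 in those of day 9, 5.47 in controls of day 14 and 6.81 in controls of day 9. The nearest row above, starting at 14918271, averaged 0.993, 0.265, 0.763 and 0.487 CPM in the same 4 groups. The gene that overlaps gene 5 had log2 fold changes of 0.49 ± 0.44 with age in MPS VII dogs and -0.66 ± 0.44 for genotype at day 9 (SE).

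Other runs of neighbouring genes are set beside the cluster here. On chromosome 12, 8 rows between 9858317 and 10055604 held 5 tested genes, and on chromosome 9, 6 rows between 5858852 and 5976435 held 4. On chromosome 27, 21 rows between 35815129 and 36818398 held 11 tested genes. The medians below are log2 fold changes on chromosomes 12, 9 and 27, in that order. With age in MPS VII dogs they were 0.63, 1.11 and 0.71, beside 0.72 in the members. With age in controls they were 0.44, 2.04 and 1.6, beside 1.93, so the runs on chromosomes 9 and 27 also had high medians in the comparison that chose the window. For genotype at day 9 they were 2.60, 2.55 and 0.44, beside 1.53, and for genotype at day 14 they were 1.64, 1.40 and -0.09, beside 0.17. The lists share the same libraries, and the differences between them were not tested.

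The genes whose levels followed the cluster most closely lay elsewhere in the genome. The likeness was Pearson's correlation of log2 CPM with the mean of the 6 standardised members over 20 libraries. The closest was a gene on chromosome 28 from 614395 to 900471 (r = 0.935), which averaged 16.1 CPM in MPS VII dogs of day 14, 9.22 in those of day 9, 10.2 in controls of day 14 and 3.25 in controls of day 9. It was followed by genes on chromosome 1 from 107130838 to 107136913 (r = 0.933), on chromosome 12 from 15012562 to 15085972 (r = 0.932), on chromosome 7 from 4156687 to 4282147 (r = 0.930) and on chromosome 11 from 71356099 to 71369603 (r = 0.926). With group means taken off, the closest was a gene on chromosome 4 from 35985495 to 35999391 (r = 0.838), followed by genes on chromosome 2 from 84141911 to 84150803 (r = 0.780), on chromosome 7 from 256593 to 282730 (r = 0.775), on chromosome 6 from 59383898 to 59411940 (r = 0.770) and on chromosome 15 from 34279503 to 34414767 (r = 0.762). The lists by these measures held different genes. They were ranked over all tested genes, and the file gives none of them a name.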

How the data were processed

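The deposited table holds raw, unnormalised read counts in 20 libraries for 24580 Ensembl genes, each with its exon positions and exon length, per the file headers. Polyadenylated RNA was sequenced as stranded paired reads of 100 bases and mapped to CanFam3.1, per the labels' protocols, which name Ensembl build 77. STAR 2.4.0j and HTSeq stand, with edgeR, bcl2fastq and CASAVA 1.8.2, in the submitters' processing notes, which give no roles. The strand setting of the counting is not given in the sources used here.

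Counts were fitted with edgeR 4.0.16 in R 4.3.3: filterByExpr on the 4 groups kept 14550 genes (those dropped held 0.0413% of counts), with TMM scaling, 1 mean per group, robust quasi-likelihood tests and Benjamini-Hochberg adjustment over all tested genes at 0.05. A standard error is the size of the log2 fold change over the root of its F statistic, and 95% intervals take the normal quantile. CPM use TMM-scaled library sizes. Log2 CPM for correlations had a prior count of 2. Each library was taken as 1 animal from its label, and no pair of libraries within a group agreed within sampling noise. For each of 40 pairs chi-square was averaged over the genes with 20 or more counts in both libraries together. These means were 16.7 to 607. Among counts under 200, 65.2% to 76.4% were even in a library. The alternatives were median-ratio scaling, no scaling factors, no expression filter, DESeq2 1.42.0, halved counts, fewer groups in the fit and each library left out.

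The members, windows and lists were chosen with earlier results of these data known. Every member is named by position, and the genes most like them are the 5 with the highest correlation by each of 2 measures. Lists of marker genes by symbol were not analysed, because 0 identifiers matched a symbol. The members' sequences are not shown, because no sequence of this assembly was among the sources used here.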

Additional observations from a re-analysis of the deposited data

Results flagged for a closer look

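In 36 sets of 5 libraries (8 genes and their sum, in 4 groups), 4 held a library far from the rest of its group, where chance gives about 5% of sets. The set of gene 8 in day 9 controls was 0 throughout and could not be flagged. The sum holds the counts of the genes, so the sets are not independent. Control day 9 replicate 1 stood at a summed level of 5.51 CPM, where its 4 companions held 1.89 to 2.69 CPM. The same library stood at 1.53 CPM for gene 5, against 0.290 to 0.640 CPM. MPS VII day 9 replicate 3 stood at 3.24 CPM for gene 7, where its companions held 1.13 to 1.68 CPM. Control day 14 replicate 3 stood at 0.454 CPM for gene 2, against 0.0938 to 0.192 CPM, which rests on 8 counts. What set these libraries apart was not tested.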

How the results depend on the processing

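No called value changed sign under the alternatives run. Uncalled values near 0 did for genotype at day 14: gene 5 (-0.09) was 0.05 without MPS VII day 14 replicate 5 and 0.02 without control day 14 replicate 2, gene 6 (-0.12) was 0.05 without MPS VII day 14 replicate 5, and gene 1 (0.00) ranged over -0.16 to 0.21 with libraries left out. For age in controls 6 members were called, and 6 to 7 under the alternatives. For genotype at day 14 the count of 0 held under every alternative except without MPS VII day 14 replicate 5, where it was 1 (range 0 to 1 with libraries left out). For age in MPS VII dogs the count of 1 became 0 without the expression filter, 2 with DESeq2, 2 without control day 9 replicate 1 and MPS VII day 9 replicate 3 together, and 0 to 3 with each library left out. For genotype at day 9 the count of 4 became 2 with only the compared groups in the fit, 3 without scaling factors, without the expression filter or with halved counts, and 2 to 4 with each library left out. For the difference of the age change the count of 0 became 1 with DESeq2, 2 without both libraries named above, and 0 to 2 with each library left out. The cause of these changes was not tested. Without scaling factors the median of all genes for age in controls was 0.37 in place of -0.06, and that of the members 2.33 in place of 1.93. The higher share of all genes called also moved without scaling factors: to 85.3% in place of 73.7% for genotype at day 9, 32.8% in place of 51.2% at day 14, 90.3% in place of 51.3% for age in controls and 6.38% in place of 25.3% for the difference. Over all genes, calls for age in MPS VII dogs numbered 3297, against 2073 without scaling factors and 1466 with only the compared groups, those for genotype at day 9 numbered 1220, against 711 with only the compared groups, and those for the difference numbered 474, against 932 with DESeq2, 898 without both libraries and 199 to 759 with single libraries left out. The log2 ratio of the summed level stayed within 1 SD of the replicates with either other scaling, without gene 5 and with single libraries left out, the alternatives run for it, at 1.35 to 1.85 for genotype at day 9 with libraries left out. Without the expression filter gene 8 was also called with age in controls, from 14 counts against 0. No paired analysis was possible because the labels give no litter. Low counts limit all of these values.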

Other observations

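The nearest gene above the window, starting at 14918271 and ending at 14923535, was singled out after its values were seen. It stood at 0.873 to 1.14 CPM in MPS VII dogs of day 14, against 0.158 to 0.454 CPM in MPS VII dogs of day 9, and the groups did not overlap. Its log2 fold change was 1.89 ± 0.48 (SE, edgeR adjusted p = 0.00732). In controls it stood at 0.227 to 1.25 CPM at day 14 and 0.0896 to 0.881 CPM at day 9, with a log2 fold change of 0.65 ± 0.45 (SE, edgeR adjusted p = 0.254). The difference between those age changes, 1.23 ± 0.66 (SE), did not pass (edgeR adjusted p = 0.325).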
